A study of Mus musculus with 12 samples.

Results

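The data compared here were 3 RNA-seq libraries of 28-2-200f cells and 3 libraries of ID8-200f cells, 6 of the 12 libraries in the series, chosen by their labels. Both are murine ovarian cancer cell lines, 28-2 and ID8, that carried the miR-200c/141 cluster and the miR-200b/200a/429 cluster on 2 lentiviral vectors, both driven by a CMV promoter. One held Ex_miR200c-141 with mCherry and hygromycin resistance, and the other Ex_miR200b-200a-429 with GFP and puromycin resistance. The other 6 libraries came from the same lines with a control vector (EV) that held EGFP, puromycin resistance and mCherry behind an EF1A promoter (28-2EV and ID8EV), 3 libraries each. The question was which genes differ between the lines once both carry the miR-200 vectors. 28-2-200f cells grew in puromycin at 60 µg/ml with hygromycin at 1000 µg/ml, and ID8-200f cells in puromycin at 40 µg/ml with hygromycin at 50 µg/ml, so the line and the drug doses cannot be told apart here. 28-2EV and ID8EV cells both grew in puromycin at 30 µg/ml. The doses thus also differed between the EV and the miR-200 lines, so vectors and drug doses cannot be told apart there either. All were grown as flat cultures in DMEM with serum, and whether each line was a pool or a single clone was not given in the sources used here. The study's methods call the samples independent, and where they were not separate cultures the p-values measure only the spread between these samples.

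The miR-200 family holds 5 small RNAs from 2 gene clusters. Each guides the silencing machinery to messenger RNAs whose 3′ untranslated regions pair with the seed of the miRNA, the bases 2 to 8 at its 5′ end. Best known among the targets are Zeb1 and Zeb2, transcription factors that repress E-cadherin (Cdh1) and other epithelial genes during the epithelial to mesenchymal transition (EMT), so the family is known for holding epithelial cells in their state. Ovarian surface cells and the cancers derived from them express mesothelial, epithelial and mesenchymal genes side by side. The mature sequences of the 5 members, which both lines were given, are shown 5′ to 3′ with the seed in capitals (RefSeq, build GRCm38.p6).
mmu-miR-200b-3p: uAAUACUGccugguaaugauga
mmu-miR-200c-3p: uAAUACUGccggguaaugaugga
mmu-miR-429-3p: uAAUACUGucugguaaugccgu
mmu-miR-200a-3p: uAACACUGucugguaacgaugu
mmu-miR-141-3p: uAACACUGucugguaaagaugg
The first 3 share the seed AAUACUG and the last pair the seed AACACUG. miR-200b, miR-200a and miR-429 lie on chromosome 4 and miR-200c and miR-141 on chromosome 6, all on the minus strand. None of the 12 libraries held a count for Mir141, Mir429, Mir200a, Mir200b or Mir200c, so the level of the miRNAs in the 2 lines could not be compared from these counts. The paper measured them by TaqMan RT-PCR, within each line. In ID8-200f it reports a significant increase in miR-200a, miR-200b and miR-200c, but not in miR-429 or miR-141. In the other line with both clusters it reports a significant increase in all 5. The gain in the miRNAs may thus have differed between the 2 lines, and its part in the results was not tested.

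Total counts were 16716323 to 17746762 in 28-2-200f and 17120815 to 22635408 in ID8-200f. Counting error alone did not account for the spread of the replicates. Chi-square over its degrees of freedom was 26.4 to 61.1 between 28-2-200f libraries and 6.43 to 20.8 between ID8-200f libraries. Replicate 3 of 28-2-200f stood apart in several epithelial genes and in the medians of chromosomes 1 and 18, as given below. Of 16 mesothelial and ovarian surface markers tested, 1 passed as higher (Bnc1, log2 fold change 1.34) and 1 as lower (Lrrn4, -3.63). Wt1, a transcription factor of the ovarian surface, had 628, 645 and 664 CPM in 28-2-200f cells, against 675, 619.6 and 648 CPM in ID8-200f cells, and Msln, mesothelin, had 616, 605 and 1023 CPM in 28-2-200f cells, against 620.3, 597 and 611 CPM in ID8-200f cells. Of 12 leukocyte markers 8 had no read in the 6 libraries, and their summed level was 1.64 to 2.21 CPM in 28-2-200f and 2.71 to 3.09 CPM in ID8-200f. The summed level of 10 fibroblast markers was 229 to 391 CPM in 28-2-200f and 118 to 169 CPM in ID8-200f, most of it decorin (Dcn), and 3 of the 10 had no read. Of the 4 fibroblast markers tested, 3 were negative, and Col1a1 and Col3a1 passed as lower. Their part in the results was not tested.

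In all, 302 of 12713 genes tested (2.38%) passed the cut-off, which asked for an FDR below 0.01 and a log2 fold change beyond 1 in either direction (edgeR, quasi-likelihood test). They divided into 167 genes higher in 28-2-200f (1.31%) and 135 lower (1.06%), and the median log2 fold change over all genes tested was 0.01. With all 12 libraries in one fit 143 were higher and 160 lower, and with limma on log2(TPM + 1) 115 and 146. At an unadjusted p under 0.05, 12.6% of all genes tested were higher and 11.7% lower, which is the background for such counts below. Among the 302, 198 had an absolute log2 fold change over 2. In each of the 302 the 3 values of one line lay outside those of the other, a pattern that 30.9% of the tested genes shared. With 1 library left out at a time, 473, 168 and 422 genes passed without 28-2-200f replicate 1, 2 and 3, and 106, 98 and 80 without ID8-200f replicate 1, 2 and 3. In those 6 fits 78 of the 302 genes passed every time, 43 higher and 35 lower, 266 kept an FDR under 0.05 every time, and the largest adjusted p of any of the 302 was 0.0615.

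**Figure D1:**
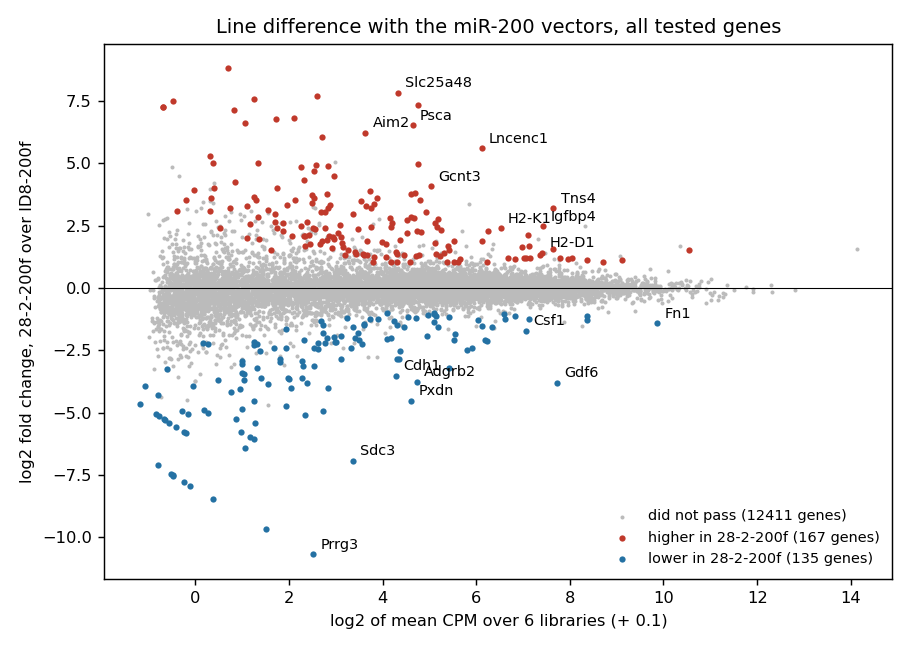
Each point is 1 of the 12713 genes tested, with the log2 of its mean CPM over the 6 libraries on the x axis and its log2 fold change, 28-2-200f over ID8-200f, on the y axis. The 167 genes higher in 28-2-200f are red, the 135 lower are blue, and both are spread over low and high levels.

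The gene with the smallest adjusted p was Tns4 (tensin 4), which binds integrins and growth factor receptors in epithelial cells. Tns4 had 362, 357 and 366 CPM in 28-2-200f cells, against 39, 37.4 and 40.7 CPM in ID8-200f cells. The replicates lay close together and far apart between the lines (log2 fold change 3.2, SE 0.0932, adjusted p = 2.47e-06). Lad1, a filament protein of the basement membrane zone, had 30.7, 39.3 and 86.8 CPM in 28-2-200f cells, against 1.84, 1.54 and 1.51 CPM in ID8-200f cells (log2 fold change 4.98, SE 0.428, adjusted p = 0.000397). Lama3, a chain of laminin-332 in the same zone, had 43.9, 33.1 and 68 CPM in 28-2-200f cells, against 4.65, 1.86 and 3.9 CPM in ID8-200f cells (log2 fold change 3.8, SE 0.371, adjusted p = 0.000724). In both, replicate 3 was the highest of the 28-2-200f libraries, and the lowest of them was still above every ID8-200f library.

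Of 27 glycosyltransferase genes tested 3 passed as higher, with a median log2 fold change of 0.11 over the list. Gcnt3, which makes the core branches of mucin glycans, had 51, 61.3 and 71.9 CPM in 28-2-200f cells, against 1.69, 5.35 and 3.84 CPM in ID8-200f cells. Fut2, the fucosyltransferase behind the secretor blood group antigens, had 45.4, 46.3 and 44.4 CPM in 28-2-200f cells, against 4.84, 1.49 and 3.79 CPM in ID8-200f cells. The 28-2-200f values of Fut2 were nearly the same in the 3 libraries, at 3.75 on the log2 scale over ID8-200f (SE 0.337). B3gnt3, which extends the same glycans, was the third, and 0 of the 27 passed as lower by edgeR (3 at an unadjusted p under 0.05, 0 by DESeq2). Muc1, a membrane mucin, had 7.76, 8.71 and 9.49 CPM in 28-2-200f cells, against 2.27, 1.72 and 1.86 CPM in ID8-200f cells, and Ctse, the gastric protease cathepsin E, had 17.9, 6.06 and 17.1 CPM in 28-2-200f cells, against 0.726, 0.272 and 0.349 CPM in ID8-200f cells. Every 28-2-200f library was above every ID8-200f library for both (log2 fold changes 2.14 and 4.9). Muc1 and Psca were the 2 higher of 10 ovarian cancer surface antigens tested, and Cd24a was the 1 lower, with 0.627, 0.189 and 0.122 CPM in 28-2-200f cells, against 3.0, 4.94 and 2.8 CPM in ID8-200f cells (log2 fold change -3.47, SE 0.553, adjusted p = 0.00727).

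Psca and Slurp1 encode small proteins of the Ly6 family, one anchored at the surface of urogenital epithelia and the other secreted by skin. Psca had 32.9, 19.9 and 95.4 CPM in 28-2-200f cells, against 0.677, 0.68 and 0.175 CPM in ID8-200f cells. Slurp1 had 5.08, 3.66 and 29.5 CPM in 28-2-200f cells, against 0.242, 0.136 and 0.175 CPM in ID8-200f cells. Replicate 3 decided much of the size, since without it the log2 fold change of Psca was 5.62 against 6.52, and that of Slurp1 was 4.52 against 6.05. Both genes lie side by side on chromosome 15 with Jrk and Them6, and all 4 neighbors passed as higher (log2 fold changes of 2.09 for Jrk and 3.47 for Them6, named after their values were seen). Krt6a, a keratin of stratified epithelia, showed the same spread, with 11.3, 15 and 133 CPM in 28-2-200f cells, against 0.339, 0.362 and 0.233 CPM in ID8-200f cells. Without 28-2-200f replicate 3 its log2 fold change was 5.35, against 7.35.

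Of the transcription factors and splicing regulators of epithelial cells, 3 of 9 tested passed as higher and 0 as lower by edgeR (1 at an unadjusted p under 0.05, 1 by DESeq2). Ehf and Elf3 are ETS factors of glandular epithelia, and Grhl1 is a grainyhead factor of the epidermis. Elf3 had 3.76, 5.05 and 18.5 CPM in 28-2-200f cells, against 0.194, 0.181 and 0.582 CPM in ID8-200f cells (log2 fold change 4.85, SE 0.772, adjusted p = 0.00722), so that replicate 3 was again the highest, and without it the log2 fold change was 3.82. Grhl1 had 10.3, 13.1 and 13 CPM in 28-2-200f cells, against 2.76, 2.27 and 3.9 CPM in ID8-200f cells. Ehf held 198 counts over the 28-2-200f libraries and 2 over the ID8-200f libraries, a ratio of 119 (exact 95% interval 32.5 to 990, counting error only). Esrp2, a splicing regulator of epithelia, had 71.7, 66.5 and 61.9 CPM in 28-2-200f cells, against 48.1, 56.2 and 49.2 CPM in ID8-200f cells, an order that held in every library but did not pass (adjusted p = 0.0713), while Esrp1, Grhl2 and Ovol2 had at most 0.365 CPM in any of the 6 libraries.

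The adhesion genes that passed went both ways. E-cadherin (Cdh1), the adhesion molecule that defines epithelial contacts, was lower in 28-2-200f, with 3.02, 4.8 and 1.58 CPM in 28-2-200f cells, against 37.4, 35.7 and 34.1 CPM in ID8-200f cells (log2 fold change -3.52, SE 0.315, adjusted p = 0.000471), and this call held in all 6 fits without 1 library. It was the 1 gene of 8 cadherin and catenin genes tested that passed by edgeR (1 higher and 1 lower at an unadjusted p under 0.05, and 1 and 1 by DESeq2). Cldn15, a pore-forming claudin, was also lower, at 24.6, 31.6 and 27.3 CPM in 28-2-200f cells, against 148, 102 and 115 CPM in ID8-200f cells, whereas Crb3, which sets up the apical domain, was higher, at 7.36, 4.54 and 3.29 CPM in 28-2-200f cells, against 0.677, 0.453 and 0.582 CPM in ID8-200f cells. Those were the 1 higher and 1 lower gene by edgeR of 16 tight junction and polarity genes tested. Of the 16, 12 had a positive log2 fold change (7 higher and 1 lower at an unadjusted p under 0.05, 2 and 1 by DESeq2). Of 10 desmosome genes and 5 simple epithelial keratins, 0 passed by edgeR (4 and 3 were higher and 0 lower at an unadjusted p under 0.05, and 0 passed by DESeq2). A positive log2 fold change was found in 9 of the 10 and in all 5.

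Single libraries weighed on several of these genes. Krt7, a keratin of simple epithelia, had 173, 258 and 1207 CPM in 28-2-200f cells, against 97.4, 101 and 93.1 CPM in ID8-200f cells, and the wide spread of the 28-2-200f libraries left it at an adjusted p of 0.0465. Without replicate 3 it passed with a log2 fold change of 1.14 against 2.48 (adjusted p = 0.00195, edgeR), and it also passed without replicate 1, at 2.90. Dsp, desmoplakin, had 32.7, 31.8 and 214 CPM in 28-2-200f cells, against 70.9, 80.8 and 79.3 CPM in ID8-200f cells, with replicate 3 above and replicates 1 and 2 below all ID8-200f libraries. Without replicate 3 the log2 fold change of Dsp changed from 0.26 to -1.26 and the gene passed as lower (adjusted p = 0.000242, edgeR). Epcam, an adhesion molecule of simple epithelia, had 15.3, 12.1 and 26.3 CPM in 28-2-200f cells, against 8.81, 6.66 and 8.62 CPM in ID8-200f cells and did not pass (adjusted p = 0.0403). Krt18 was higher in every 28-2-200f library, at 1308, 1248 and 1486 CPM in 28-2-200f cells, against 825, 895 and 817 CPM in ID8-200f cells, by less than the fold change required (log2 fold change 0.67).

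**Figure D2:**
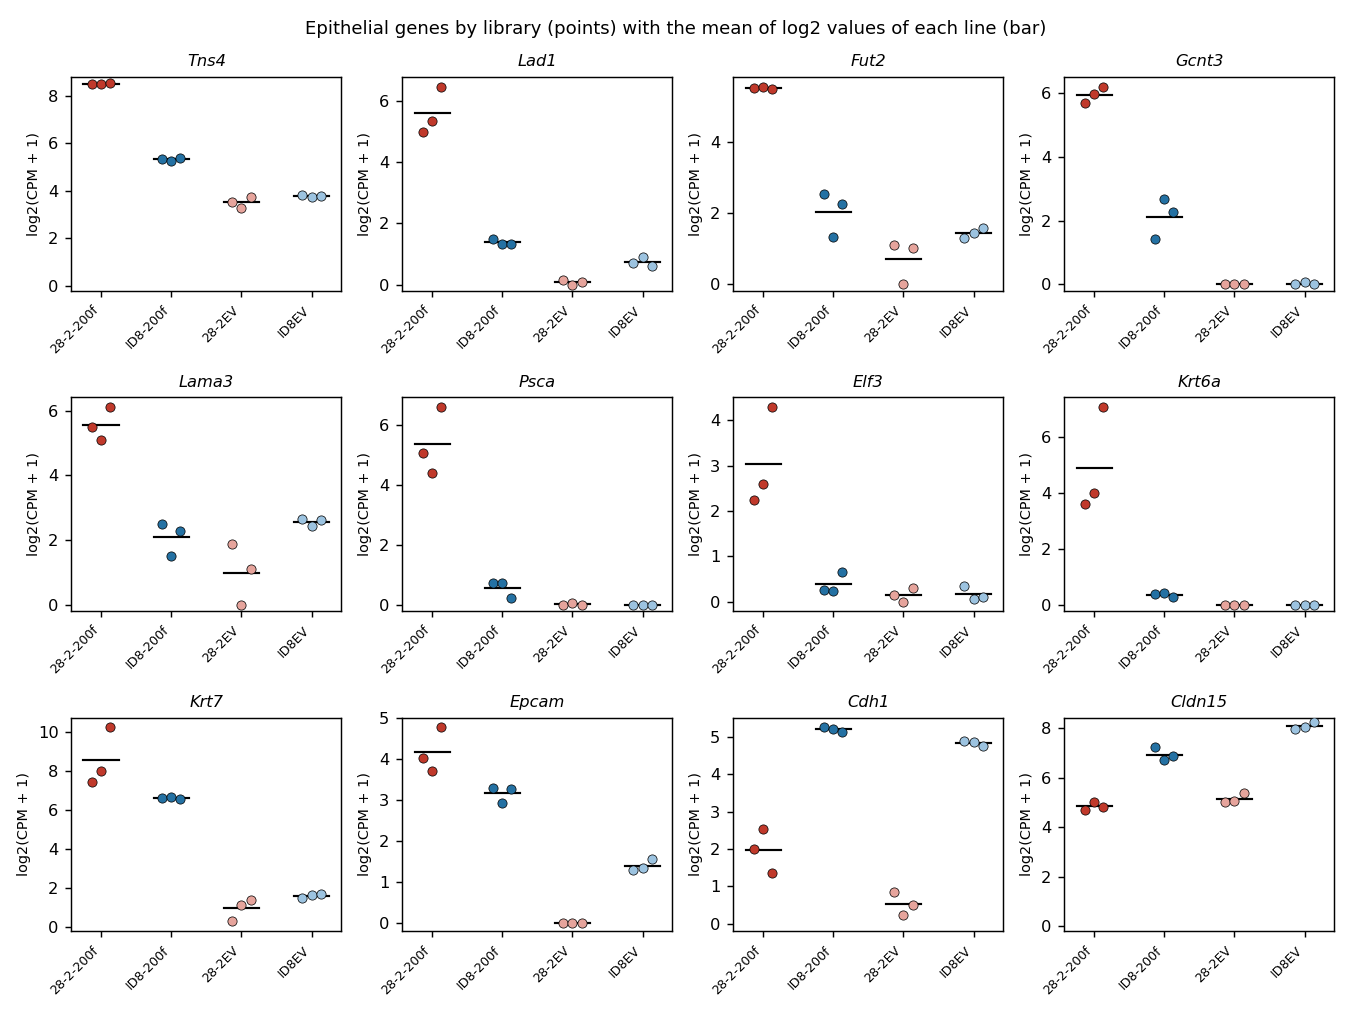
Values of 12 epithelial genes as log2(CPM + 1) on the y axis, with a point for each of the 3 libraries in 28-2-200f, ID8-200f, 28-2EV and ID8EV and a bar at their mean. Cdh1 and Cldn15 were lower in 28-2-200f than in ID8-200f, while Tns4, Lad1, Fut2, Gcnt3, Lama3, Psca, Elf3 and Krt6a were higher and Krt7 and Epcam did not pass.

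Of 6 EMT transcription factors tested, 5 had a negative log2 fold change and 1 passed. Zeb1 had 11.8, 14 and 10.7 CPM in 28-2-200f cells, against 20.7, 19.8 and 23.9 CPM in ID8-200f cells (log2 fold change -0.82, SE 0.156, adjusted p = 0.014). Zeb2 had 25.7, 19.6 and 16 CPM in 28-2-200f cells, against 34.9, 39 and 38.2 CPM in ID8-200f cells (log2 fold change -0.87, SE 0.176, adjusted p = 0.0186). For both, each 28-2-200f library was below each ID8-200f library, and neither reached the cut-off, although Zeb2 passed without 28-2-200f replicate 1 (log2 fold change -1.08). Snai1 (log2 fold change -1.0, adjusted p = 0.0541) and Snai2 (-0.55, adjusted p = 0.116) did not pass, and Twist1 and Twist2 were too low to be tested, with at most 0.122 CPM in any of the 6 libraries. Prrx1, a homeobox factor of mesenchyme, was the 1 of 6 that passed, with 0.228, 0.126 and 0.183 CPM in 28-2-200f cells, against 2.52, 2.49 and 2.27 CPM in ID8-200f cells. Vimentin (Vim), the intermediate filament of mesenchymal cells, had 1166, 1286 and 2145 CPM in 28-2-200f cells, against 2085, 2672 and 2161 CPM in ID8-200f cells, and the lines overlapped.

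Among genes of the extracellular matrix more passed as lower than as higher in 28-2-200f. Of 19 collagen chain genes tested, 4 passed as lower (Col12a1, Col16a1, Col1a1 and Col3a1) and 0 as higher by edgeR (0 at an unadjusted p under 0.05, 0 by DESeq2), 18 had a negative log2 fold change, and their median was -0.81 beside 0.01 over all genes. Col16a1, a collagen that lies along fibril surfaces, had 3.36, 4.61 and 6.69 CPM in 28-2-200f cells, against 41.9, 29.5 and 34.9 CPM in ID8-200f cells. Col1a1, of type I fibrils, had 2.11, 3.16 and 2.01 CPM in 28-2-200f cells, against 12, 10.6 and 10.5 CPM in ID8-200f cells. Col12a1 held 3 counts over the 28-2-200f libraries against 268 in ID8-200f, a ratio of 74.3 in favor of ID8-200f (25.1 to 362). Calls of Col12a1 and Col16a1 held in all 6 fits without 1 library, and those of Col1a1 and Col3a1 in 3 and 4 of the 6.

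Pxdn, peroxidasin, cross-links type IV collagen in basement membranes. It had 1.94, 2.27 and 1.89 CPM in 28-2-200f cells, against 47.6, 48.5 and 44.5 CPM in ID8-200f cells (log2 fold change -4.53, SE 0.144, adjusted p = 2.61e-06). Lox, which cross-links fibrillar collagen and elastin, had 26.2, 23.8 and 6.63 CPM in 28-2-200f cells, against 102, 92.4 and 107 CPM in ID8-200f cells. Fibronectin (Fn1) was the most abundant gene that passed as lower, at 365, 551 and 622 CPM in 28-2-200f cells, against 1321, 1441 and 1289 CPM in ID8-200f cells (log2 fold change -1.41, SE 0.188, adjusted p = 0.00327). Among 24 matrix glycoproteins and proteoglycans tested, 6 passed as lower (Fn1, Emilin2, Fstl1, Ltbp1, Ccn4 and Mgp) and 1 as higher. The exception was Vcan, versican, a large proteoglycan of loose matrix, with 23.4, 40.9 and 26.8 CPM in 28-2-200f cells, against 4.79, 5.44 and 6.35 CPM in ID8-200f cells (log2 fold change 2.45, SE 0.235, adjusted p = 0.000667). Sdc3, a cell surface heparan sulfate proteoglycan, had 0.342, 0.126 and 0 CPM in 28-2-200f cells, against 17.6, 25.3 and 17.8 CPM in ID8-200f cells, close to absent in 28-2-200f.

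The enzymes that remodel the matrix went both ways. Of 23 metalloprotease and inhibitor genes tested, Mmp14 and Mmp16, both membrane-bound, passed as lower and Mmp15, another membrane-bound enzyme, passed as higher together with the inhibitor Timp3. Mmp14 had 10.7, 5.55 and 5.29 CPM in 28-2-200f cells, against 30.8, 24.9 and 30.3 CPM in ID8-200f cells. Mmp15 had 20.8, 10.1 and 7.12 CPM in 28-2-200f cells, against 1.5, 1.45 and 1.16 CPM in ID8-200f cells. Timp3 had 139, 172 and 246 CPM in 28-2-200f cells, against 75.4, 86.1 and 79.1 CPM in ID8-200f cells. Mmp16 held 3 counts over the 28-2-200f libraries and 119 over those of ID8-200f, a ratio of 33 in favor of ID8-200f (11 to 162). Integrins, the receptors for this matrix, gave 0 of 12 past the cut-off by edgeR, with 2 higher and 3 lower at an unadjusted p under 0.05 and 1 lower by DESeq2.

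MHC class I molecules display peptides to T cells and need beta-2-microglobulin for their fold. B2m and several class I genes were higher in 28-2-200f. H2-K1 had 166, 188 and 111 CPM in 28-2-200f cells, against 32.7, 27.9 and 27.1 CPM in ID8-200f cells (log2 fold change 2.4, SE 0.197, adjusted p = 0.000325). H2-D1 had 239, 245 and 259.6 CPM in 28-2-200f cells, against 95.3, 99.7 and 82.5 CPM in ID8-200f cells (log2 fold change 1.42, SE 0.103, adjusted p = 0.000182). B2m, the shared light chain, had 225, 229 and 252 CPM in 28-2-200f cells, against 93.7, 97.7 and 88.8 CPM in ID8-200f cells (log2 fold change 1.33, SE 0.0924, adjusted p = 0.00018). In each, the lowest 28-2-200f library was more than 2-fold above the highest ID8-200f library, and the 3 calls held in all 6 fits without 1 library. Nlrc5, the transactivator of class I genes, had 10.2, 11.7 and 6.21 CPM in 28-2-200f cells, against 0.145, 0.498 and 0.757 CPM in ID8-200f cells. In all, 6 of 16 antigen presentation genes tested passed as higher, the others being H2-Q4 and Tapbpl, and 1 passed as lower. That was Tap2, a subunit of the peptide transporter, with 6.44, 3.47 and 5.35 CPM in 28-2-200f cells, against 16, 12.9 and 16.8 CPM in ID8-200f cells. The partner Tap1 did not pass, at 7.87, 5.3 and 5.48 CPM in 28-2-200f cells, against 4.94, 5.3 and 5.59 CPM in ID8-200f cells, and the chaperone Tapbp was higher with an adjusted p of 0.00685 but a log2 fold change of 0.67. Class I genes are alike in sequence, and reads that fit several of them could have been split or dropped in the counting.

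RefSeq held a promoter window for 17 of the 25 antigen presentation genes. Those of H2-K1, H2-D1 and B2m are shown because these genes moved together, each of 300 bases around the start of the gene, 5′ to 3′ on the strand of the gene (GRCm38.p6). Capitals mark matches, on either strand, to AANNGAAA (the core of an interferon regulatory factor site) and CCAAT, which do not overlap one another here.
H2-K1 (chr17:34000298-34000597, minus strand): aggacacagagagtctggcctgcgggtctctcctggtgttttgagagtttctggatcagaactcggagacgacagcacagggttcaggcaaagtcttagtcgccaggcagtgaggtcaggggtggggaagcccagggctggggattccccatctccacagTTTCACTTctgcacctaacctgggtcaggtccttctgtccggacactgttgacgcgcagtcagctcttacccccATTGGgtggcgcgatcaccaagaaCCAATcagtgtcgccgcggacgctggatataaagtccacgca
H2-D1 (chr17:35262844-35263143, plus strand): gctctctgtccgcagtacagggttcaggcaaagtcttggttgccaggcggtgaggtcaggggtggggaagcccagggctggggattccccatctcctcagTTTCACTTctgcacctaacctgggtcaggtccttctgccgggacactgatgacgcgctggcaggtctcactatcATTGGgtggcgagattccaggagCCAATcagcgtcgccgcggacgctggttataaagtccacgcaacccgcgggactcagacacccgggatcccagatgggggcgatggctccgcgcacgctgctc
B2m (chr2:122147437-122147736, plus strand): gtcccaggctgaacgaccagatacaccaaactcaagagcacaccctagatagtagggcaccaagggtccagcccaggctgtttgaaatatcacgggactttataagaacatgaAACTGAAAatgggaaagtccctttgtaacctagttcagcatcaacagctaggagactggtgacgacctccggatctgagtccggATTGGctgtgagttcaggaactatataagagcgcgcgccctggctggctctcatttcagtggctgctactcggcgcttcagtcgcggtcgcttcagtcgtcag
AANNGAAA was found in 24.2% of all 27025 promoter windows and CCAAT in 37.9%, and 9.47% held both. Among the 9580 windows of tested genes, 7.29% held both. Each of the printed windows held both, as did 10 of the 17 antigen presentation genes. Of these 10, B2m, H2-K1, H2-D1 and H2-Q4 passed as higher. H2-Q6, H2-Q7, H2-T22, H2-T23, H2-M3 and H2-Aa, which also held both, did not pass or were not tested. The matches are letters in a window and were not tested for a part in the difference.

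Aim2, which detects DNA in the cytosol, had 26.9, 24.4 and 21.5 CPM in 28-2-200f cells, against 0.581, 0.136 and 0.233 CPM in ID8-200f cells (log2 fold change 6.22, SE 0.363, adjusted p = 8.62e-05). Ifih1, the MDA5 sensor of long double-stranded RNA, had 24.4, 19.7 and 26.1 CPM in 28-2-200f cells, against 9.78, 9.56 and 10.5 CPM in ID8-200f cells (log2 fold change 1.23, SE 0.153, adjusted p = 0.00223). Cgas (log2 fold change 1.34) and Sting1 (1.34), which relay cytosolic DNA to interferon genes, also passed as higher and were picked out after their values were seen. Oasl2, an interferon-induced antiviral gene, had 62.2, 39.3 and 87.3 CPM in 28-2-200f cells, against 9.82, 8.7 and 9.2 CPM in ID8-200f cells (log2 fold change 2.76, SE 0.268, adjusted p = 0.000708), and Mx1 held 52 counts over the 28-2-200f libraries and 0 over those of ID8-200f, at least 20.8-fold higher if 3 counts are taken as the floor of the 3 libraries together, as for all such bounds here. Over 27 interferon-stimulated genes tested the median log2 fold change was 1.23, 24 were positive, and 3 passed as higher and 0 as lower by edgeR (15 and 1 at an unadjusted p under 0.05, 9 and 0 by DESeq2). Without 28-2-200f replicate 3 the median was 0.40, so that library carried much of it. The chief interferon regulator Irf7 had 1.6, 0.947 and 8.34 CPM in 28-2-200f cells, against 1.94, 2.94 and 2.04 CPM in ID8-200f cells, so the lines overlapped, with 28-2-200f replicate 3 the highest.

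**Figure D3:**
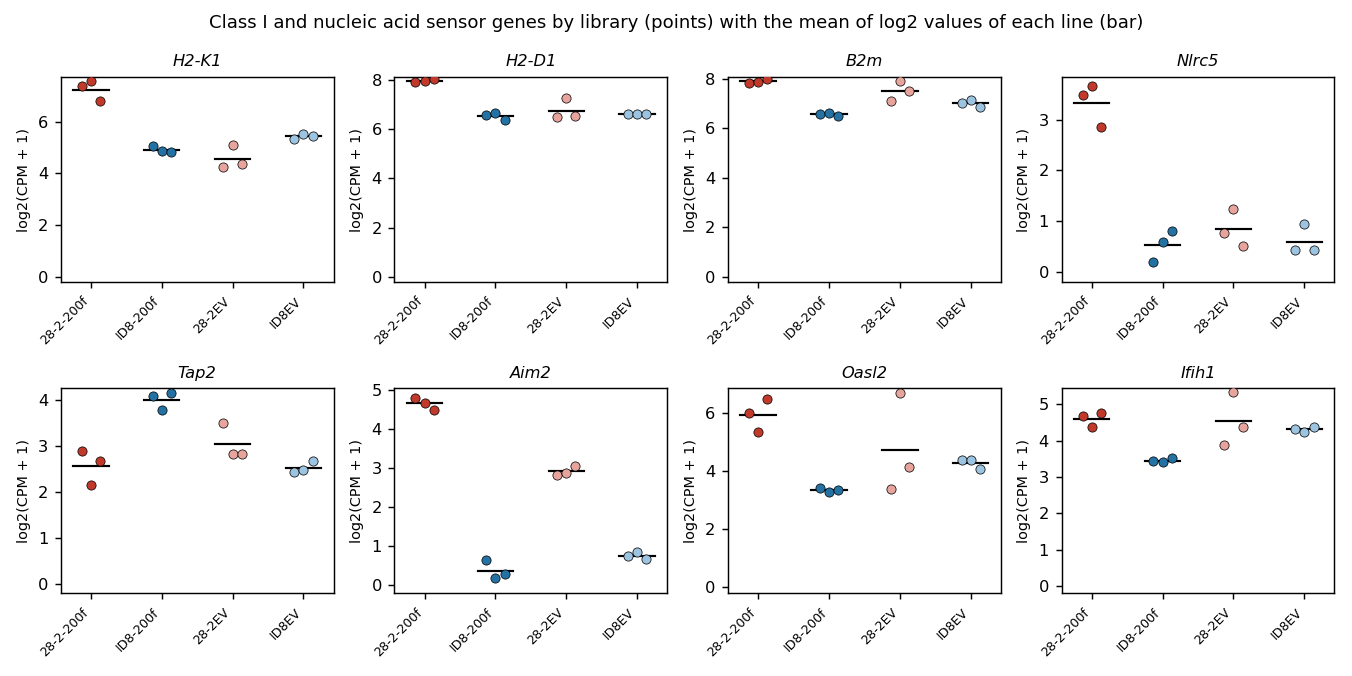
Values of 8 class I and nucleic acid sensor genes as log2(CPM + 1) on the y axis, with a point for each of the 3 libraries in 28-2-200f, ID8-200f, 28-2EV and ID8EV and a bar at their mean. H2-K1, H2-D1, B2m, Nlrc5, Aim2, Oasl2 and Ifih1 were higher in every 28-2-200f library than in any ID8-200f library, and Tap2 was lower.

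Gdf6, a bone morphogenetic protein (BMP) ligand, was among the 5 most abundant genes that fell. It had 17.2, 32.1 and 36.1 CPM in 28-2-200f cells, against 393, 399 and 388 CPM in ID8-200f cells (log2 fold change -3.8, SE 0.248, adjusted p = 0.000135). Grem1, a secreted BMP antagonist, had 30.1, 32.1 and 21.5 CPM in 28-2-200f cells, against 102, 131 and 123 CPM in ID8-200f cells (log2 fold change -2.09, SE 0.169, adjusted p = 0.000304). Smad1, which carries BMP signals to the nucleus, held 0 counts in 28-2-200f and 101 in ID8-200f, at least 28-fold lower. The close relatives Smad5 (102, 99.5 and 89.4 CPM in 28-2-200f cells, against 108, 110.1 and 109 CPM in ID8-200f cells) and Smad9 (1.94, 1.51 and 6.69 CPM in 28-2-200f cells, against 1.65, 2.4 and 2.85 CPM in ID8-200f cells) did not pass. Of 37 TGF-beta and BMP pathway genes tested those 3 passed as lower, and 0 passed as higher by edgeR (6 at an unadjusted p under 0.05, 1 by DESeq2). Id1, a target gene of BMP signals, had 72.5, 86.8 and 173 CPM in 28-2-200f cells, against 52.1, 41.9 and 41.5 CPM in ID8-200f cells and did not pass (adjusted p = 0.0305).

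Wnt pathway genes were lower more often than higher. Of 31 tested, 4 passed as lower and 0 as higher by edgeR (2 at an unadjusted p under 0.05, 0 by DESeq2), 23 had a negative log2 fold change, and the median was -0.55. The receptor Fzd8 held 0 counts in 28-2-200f and 142 in ID8-200f, at least 39.4-fold lower. Dkk2, a secreted modulator of the Wnt co-receptors, had 0.627, 0.505 and 0.608 CPM in 28-2-200f cells, against 7.98, 7.11 and 6.12 CPM in ID8-200f cells (log2 fold change -3.6, SE 0.285, adjusted p = 0.000284). The ligand Wnt10b had 1.6, 1.64 and 2.25 CPM in 28-2-200f cells, against 5.71, 5.07 and 6.17 CPM in ID8-200f cells, and Lgr6, a receptor for R-spondins, had 0.114, 0.0631 and 0.122 CPM in 28-2-200f cells, against 1.16, 0.906 and 0.99 CPM in ID8-200f cells. Of these, Dkk2 passed in all 6 fits without 1 library, Fzd8 in 3, Wnt10b in 2 and Lgr6 in 1. Axin2, a target gene of Wnt signals, had 0.798, 1.14 and 0.608 CPM in 28-2-200f cells, against 2.03, 2.45 and 2.45 CPM in ID8-200f cells and did not pass (adjusted p = 0.0356).

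Cytokines, growth factor binders and receptors changed singly. Csf1, the growth factor of macrophages, had 62.6, 57.7 and 66.4 CPM in 28-2-200f cells, against 204, 199 and 208 CPM in ID8-200f cells (log2 fold change -1.72, SE 0.0928, adjusted p = 6.46e-05). The chemokine Cxcl5 was lower, at 0.228, 0.379 and 0 CPM in 28-2-200f cells, against 2.47, 4.58 and 3.32 CPM in ID8-200f cells, and Cxcl16 was higher, at 92.7, 90.1 and 122 CPM in 28-2-200f cells, against 47.8, 44.7 and 53.2 CPM in ID8-200f cells. Igfbp4, a carrier of insulin-like growth factors, had 325, 348 and 208 CPM in 28-2-200f cells, against 55.3, 50.1 and 52.4 CPM in ID8-200f cells (log2 fold change 2.48, SE 0.19, adjusted p = 0.000243), and Igfbp6 also passed as higher (log2 fold change 1.2). Among 29 receptor tyrosine kinases tested Erbb3, a receptor for neuregulins, was higher, at 203, 198 and 198 CPM in 28-2-200f cells, against 97.6, 74.8 and 85.2 CPM in ID8-200f cells, and Ephb4, a receptor for ephrin-B2, held 2 counts in 28-2-200f against 240 in ID8-200f. Nrg2, a neuregulin, was the 1 of 9 EGF receptor ligand genes that passed as higher (log2 fold change 1.6).

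Tetraspanins, membrane proteins that organize receptors and integrins, were higher where they passed. Tspan7 had 53.9, 49.4 and 76.4 CPM in 28-2-200f cells, against 9.15, 9.2 and 11.1 CPM in ID8-200f cells (log2 fold change 2.61, SE 0.188, adjusted p = 0.00018). The far more abundant Tspan8 had 408, 317 and 381 CPM in 28-2-200f cells, against 177, 144 and 164 CPM in ID8-200f cells (log2 fold change 1.18, SE 0.13, adjusted p = 0.00131). With Tspan1 and Tspan6 they made up 4 of 22 tetraspanin genes tested, and 0 passed as lower by edgeR (2 at an unadjusted p under 0.05, 0 by DESeq2). Gsta4, a glutathione transferase that clears products of lipid oxidation, had 779, 747 and 755 CPM in 28-2-200f cells, against 380.2, 331 and 332 CPM in ID8-200f cells, and Gsta1 passed as well, 2 of 15. Sgk1 (log2 fold change 1.11), a kinase induced by corticosteroids, Nr3c2 (2.39), the mineralocorticoid receptor, and Ano1 (1.04), a chloride channel, were higher too. Aqp5, a water channel, was lower, with 6.84, 6.44 and 12.1 CPM in 28-2-200f cells, against 81.9, 76.3 and 73.7 CPM in ID8-200f cells (log2 fold change -3.2, SE 0.229, adjusted p = 0.00018).

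Some genes had few or no reads in 1 line. Prrg3, a membrane protein with a vitamin K-dependent domain, held 0 counts over the 28-2-200f libraries and 670 in the ID8-200f libraries, at least 186-fold lower. Wtip, a LIM protein of cell junctions, held 0 and 329 counts, at least 91.2-fold lower. In the other direction Cd177, a surface protein best known from neutrophils, held 590 counts in 28-2-200f and 3 in ID8-200f, a ratio of 237 (80.5 to 1150), and Tfpi, the inhibitor of tissue factor, held 318 and 3, a ratio of 127 (43.2 to 621). Slc25a48, a mitochondrial carrier, had 24.9, 45.9 and 48.2 CPM in 28-2-200f cells, against 0.194, 0.272 and 0 CPM in ID8-200f cells, the largest fitted increase among genes with at least 10 CPM on average in the higher line. Lncenc1, a long noncoding RNA known from embryonic stem cells, had 102, 127 and 178 CPM in 28-2-200f cells, against 3.58, 1.81 and 2.91 CPM in ID8-200f cells (log2 fold change 5.61, SE 0.298, adjusted p = 6.43e-05), and Mrgprb2, a receptor known from mouse mast cells, had 9.3, 10.3 and 14.5 CPM in 28-2-200f cells, against 0.339, 0.498 and 0.233 CPM in ID8-200f cells. Adgrb2, an adhesion G protein-coupled receptor, had 3.19, 3.98 and 3.77 CPM in 28-2-200f cells, against 58.4, 40.6 and 49.5 CPM in ID8-200f cells, and Tiam1, an activator of the small GTPase Rac, had 1.14, 0.947 and 0.365 CPM in 28-2-200f cells, against 11.3, 15 and 13.5 CPM in ID8-200f cells. Rgl3 and Vldlr also passed as lower (log2 fold changes -4.95 and -3.12). Each of these genes had values in one line that stayed clear of those in the other, as did all 302 that passed, so this followed from their choice.

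With 2.38% of all genes past the cut-off, a count of 0 in a list of this size is near the background. Of 37 cell cycle genes, 43 ribosomal protein genes and 18 NF-kB feedback genes tested, 0 passed by edgeR and 0 by DESeq2. At an unadjusted p under 0.05, 1 cell cycle gene was higher and 2 lower, 2 ribosomal protein genes were higher and 0 lower, and 6 NF-kB feedback genes were higher and 1 lower. Of 26 nuclear-encoded respiratory chain genes 0 passed by either tool, although 24 were positive and 11 were higher at an unadjusted p under 0.05, with a median log2 fold change of 0.23. Of 20 cholesterol and fatty acid synthesis genes 0 passed by either tool, with 2 higher and 5 lower at an unadjusted p under 0.05. Pmaip1, which encodes the death-promoting protein Noxa, was the 1 of 26 p53 pathway genes that passed, with 14.3, 14.3 and 27 CPM in 28-2-200f cells, against 3.87, 3.4 and 3.32 CPM in ID8-200f cells. The immediate early genes Atf3 and Fos passed as higher, 2 of 28 tested (log2 fold changes 1.25 and 1.92). In all, 25 of the 62 lists with a gene tested had 0 genes past the cut-off.

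Vectors for the 5 miRNAs were given to both lines, so genes with sites for these miRNAs were described as a group. An 8-base site (CAGTATTA for the seed AAUACUG, CAGTGTTA for AACACUG) was looked for in the longest annotated 3′ untranslated region of 11423 tested genes. The 855 genes with 1 site had a median log2 fold change of 0.00, the 105 with 2 or more had -0.05, and the 10463 with none had 0.02. In the same order, 12 (1.40%), 2 (1.90%) and 115 (1.10%) passed as lower, and 8, 1 and 152 as higher. Genes with more sites also had longer regions, with a median of 3354 bases for 2 or more sites against 1094 bases for none. Among 26 described miR-200 targets tested, 3 passed as lower (Tubb3, Fn1 and Lox), none of which held such a site, and 0 as higher by edgeR (2 at an unadjusted p under 0.05, 1 by DESeq2). Their median was -0.33, and 20 of the 26 were negative. Lox also passed as lower in 28-2EV against ID8EV, without the miR-200 vectors (log2 fold change -2.81). Zeb2 held 6 sites and Zeb1 held 3. Tubb3, a tubulin known from neurons, had 1.31, 1.14 and 0.548 CPM in 28-2-200f cells, against 8.66, 9.38 and 8.04 CPM in ID8-200f cells (log2 fold change -3.12, SE 0.327, adjusted p = 0.00104).

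The same line contrast without the miR-200 vectors, 28-2EV against ID8EV, had 128 of 13073 genes past the cut-off (0.979%), 16 higher (0.122%) and 112 lower (0.857%). It rests on other libraries, and 28-2EV replicate 2 lay farther from its group than any library of the miR-200 lines. Without it 436 genes passed there, 144 higher and 292 lower, and with 1 of the other 5 libraries left out instead 10 to 95 passed. Of the 302 genes, 39 also passed there in the same direction, which is 12.9% of the 302 and 30.5% of the 128, and 2 passed in the opposite direction. The 135 genes lower in 28-2-200f included 33 that were also lower in 28-2EV, and the 167 higher included 6 that were also higher. More had the same sign without passing. Of the lower genes, 129 were tested in the EV lines, and 112 were negative there, with a median log2 fold change of -1.61. Of the higher genes, 133 were tested there, and 88 were positive, with a median of 0.42. Over 12428 genes tested in both, the log2 fold changes had a Pearson correlation of 0.34 across genes, which are not independent replicates. An interaction term in a fit of the 12 libraries tested the difference between both contrasts, and 168 of 13620 genes passed (1.23%), 136 positive (0.999%) and 32 negative (0.235%), with 80 to 252 passing when 1 library was left out. Of the 302 genes 77 (25.5%) were among them. The interaction uses the same 6 libraries again, so this overlap is a description.

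Several differences were present with and without the vectors. Prrg3 had no read in any of the 3 28-2EV libraries, against 11.3, 13.8 and 14.6 CPM in ID8EV cells, much as in the miR-200 lines. Cdh1 had 0.815, 0.172 and 0.42 CPM in 28-2EV cells, against 28.4, 28 and 25.8 CPM in ID8EV cells, so it was lower in 28-2 cells with either vector, and the interaction did not pass (difference 2.32, SE 0.55, adjusted p = 0.0426). Cldn15 (-2.96 on the log2 scale), Emilin2 (-4.23), Lox (-2.81) and Lrrn4 (-3.63), a mesothelial marker, also passed as lower in 28-2EV. So did Entpd1, which degrades extracellular ATP, and Tiam1, with 0 counts in 28-2EV and 214 in ID8EV. Aim2 had 6.03, 6.36 and 7.31 CPM in 28-2EV cells, against 0.677, 0.814 and 0.596 CPM in ID8EV cells, and the gap was wider with the miR-200 vectors (difference 3.0, SE 0.481, adjusted p = 0.00529).

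Other differences stood apart from the empty vector lines. Tns4 had 10.7, 8.59 and 12.5 CPM in 28-2EV cells, against 13.3, 12.3 and 12.7 CPM in ID8EV cells, and the interaction passed with a difference of 3.48, SE 0.176, adjusted p = 1.20e-06. H2-K1 had 17.9, 33.5 and 19.5 CPM in 28-2EV cells, against 39.7, 44.9 and 42.4 CPM in ID8EV cells, below ID8EV in 28-2EV, and the difference was 3.24, SE 0.338, adjusted p = 0.000411. The same held for Vcan, at 2.77, 4.7 and 1.68 CPM in 28-2EV cells, against 30.5, 24.2 and 10.6 CPM in ID8EV cells (difference 5.29). Tspan7, one of the pair that passed in opposite directions, had 0.761, 0.745 and 0.599 CPM in 28-2EV cells, against 8.69, 8.86 and 11.5 CPM in ID8EV cells (log2 fold change -3.76, SE 0.265, adjusted p = 0.000968). The other was Armcx3, an outer mitochondrial membrane protein, with 13.2, 9.78 and 18.4 CPM in 28-2-200f cells, against 4.26, 2.36 and 3.49 CPM in ID8-200f cells. It had no read in any of the 3 28-2EV libraries, against 9.76, 11.4 and 11.9 CPM in ID8EV cells. For Gdf6, with 126, 159 and 72.1 CPM in 28-2EV cells, against 213, 204 and 162 CPM in ID8EV cells, Dll1, a Notch ligand, with 12.5, 4.12 and 5.93 CPM in 28-2EV cells, against 3.22, 3.45 and 2.94 CPM in ID8EV cells, and Adgrb2, with 66.6, 57.8 and 45.6 CPM in 28-2EV cells, against 135, 122 and 128 CPM in ID8EV cells, the interaction was negative (-3.09, -3.67 and -2.58). B2m (0.8, adjusted p = 0.107) did not pass the interaction.

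**Figure D4:**
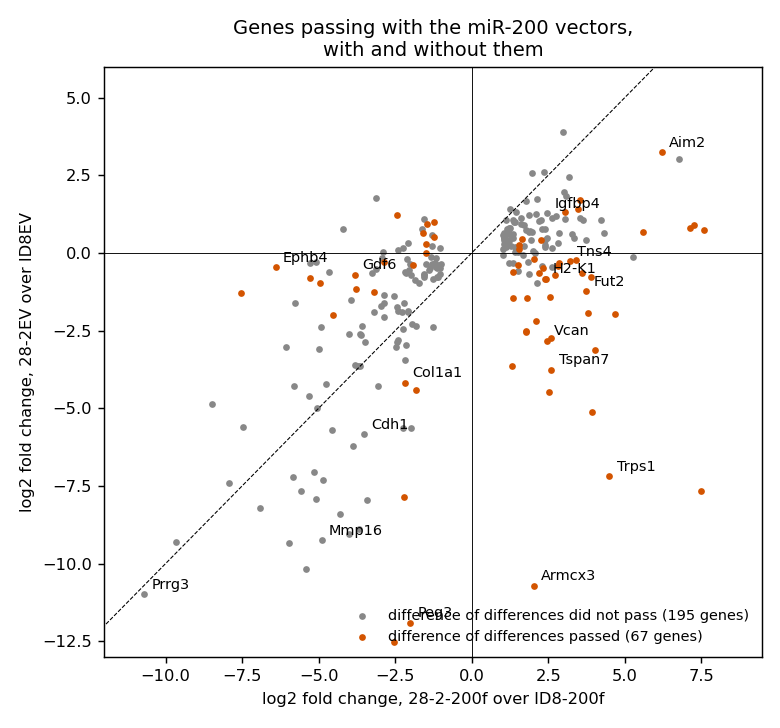
Each point is 1 of the 262 genes that passed with the miR-200 vectors and were tested in both contrasts, with the log2 fold change of 28-2-200f over ID8-200f on the x axis and of 28-2EV over ID8EV on the y axis. The dashed line marks equal values. Genes whose interaction passed (67, among them Tns4, H2-K1, Vcan and Armcx3) are orange. They lie off the line because the interaction asks for a difference between the contrasts.

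Along the chromosomes, the line difference was not even. Chromosome 12 had a median log2 fold change of -0.37 over 424 tested genes and chromosome 14 one of 0.28 over 404. The other 18 chromosomes lay between -0.15 and 0.12. On 2 of these, 28-2-200f replicate 3 stood apart from replicates 1 and 2. Relative to the ID8-200f mean, the 3 medians were -0.03, -0.01 and 0.21 on chromosome 1. On chromosome 18 they were 0.05, 0.05 and 0.24. The shift on chromosome 12 began partway along. Its first 90 tested genes in gene order had a median of 0.10, and the 314 genes from Strn3 on had -0.48, with 286 of them (91.1%) negative, 4 past the cut-off as lower and 2 as higher. That boundary was placed after the values were seen. Relative to the ID8-200f mean, the median of those 314 genes was -0.39, -0.43 and -0.47 in the 28-2-200f libraries and -0.01, -0.01 and 0.01 in the ID8-200f libraries, and it was -0.53, -0.47 and -0.52 in 28-2EV and -0.26, -0.26 and -0.31 in ID8EV. The 3 libraries of each line lay close together, ID8-200f was highest, and 28-2-200f and 28-2EV nearly met.

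Chromosome 14 showed another order. Its median relative to the ID8-200f mean was 0.28, 0.24 and 0.28 in 28-2-200f against 0.01, -0.02 and 0.01 in ID8-200f, and 0.21, 0.23 and 0.18 in 28-2EV against 0.23, 0.18 and 0.20 in ID8EV, so ID8-200f was the line that stood below the other 3. Chromosome 13 held 1 window of 40 genes with a median of 0.54, and it covered the replication-dependent histone genes. The 12 other genes of that window, the histone gene H1f5 among them, had a median of 0.59, with 9 positive and 1 past the cut-off as higher. Of 28 such genes tested there, 26 were positive with a median of 0.53, 0 passed by edgeR, 5 had an unadjusted p under 0.05 and 0 passed by DESeq2. Their median relative to the ID8-200f mean was 0.20, 0.75 and 0.40 in 28-2-200f and 0.16, -0.20 and -0.07 in ID8-200f, so 28-2-200f replicate 1 lay near the highest ID8-200f library. DNA copy number was not measured in these data, and its part in these shifts was not tested.

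**Figure D5:**
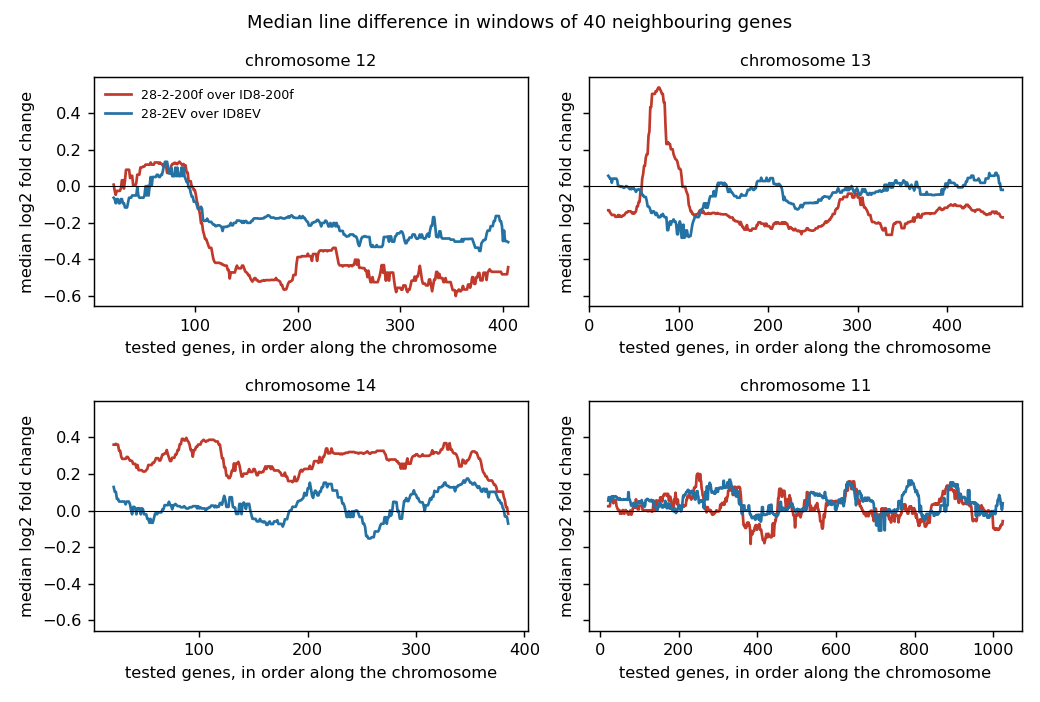
Median log2 fold change in windows of 40 neighboring tested genes (y axis) in gene order (x axis) along chromosomes 12, 13, 14 and 11, for 28-2-200f over ID8-200f (red) and 28-2EV over ID8EV (blue). Chromosome 12 steps down after about its first 90 genes, and chromosome 14 is raised in 28-2-200f over ID8-200f. Chromosome 13 peaks in the window that holds the histone genes, and chromosome 11 stays near 0.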

How the data were processed

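RNA from cultured 28-2 and ID8 lines was sequenced as paired reads. Per the labels and the study's methods, the authors used BBDuk for trimming, STAR for alignment to GRCm39 and featureCounts for the counts per gene. The deposited tables hold raw counts per gene, beside CPM and TPM that the authors computed from them. The annotation release, strand setting and aligner version are not given in the sources used here.

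The deposited counts of 57010 genes were tested with edgeR 4.0.16 (R 4.3.3): TMM scaling, filterByExpr (min.count 10, min.total.count 15) and the quasi-likelihood test with Benjamini-Hochberg adjustment over all genes tested. The cut-off was an FDR below 0.01 with a log2 fold change beyond 1 in either direction. CPM in the text are counts over TMM-scaled library sizes of all 12 libraries. Alternatives used DESeq2 1.42.0 and limma 3.58.1, with limma run on log2 of the deposited TPM + 1. The scripts were tested on simulated data.

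Named genes passed with no overlap between the lines, and were the 10 largest changes each way among genes with a mean of at least 10 CPM in the higher line, the 5 most abundant changes each way, up to 4 members of a list each way, on/off genes, and genes that passed the interaction. Genes outside this rule are named for their known role or, where said, after their values were seen. The compared groups and the lists were chosen with earlier results of these data known. Gene order, types and 3′ untranslated regions came from GENCODE M21 (GRCm38), to which 91.4% of gene IDs matched. A comparison of promoter CpG content was void, because under 80% of the genes had a promoter sequence.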

Additional observations from a re-analysis of the deposited data

Results flagged for a closer look

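In 33 named genes the line difference itself differed between the miR-200 and the EV lines. This was judged by the interaction test over all 12 libraries (edgeR, FDR under 0.01). Drug doses also differed between those lines, so their part cannot be told from that of the vectors. Values are the log2 fold change of 28-2-200f over ID8-200f minus that of 28-2EV over ID8EV. It was positive for Tns4 (3.48), H2-K1 (3.24), Lncenc1 (4.96), Fut2 (5.0), Lama3 (5.75), Mmp15 (6.18), Vcan (5.29), Tspan6 (4.34), Tspan7 (6.38), Grhl1 (2.22), Aim2 (3.0), Bnc1 (2.79), Col1a1 (1.99) and Thbd (2.61). For Col1a1 and Thbd, the line difference was negative in both contrasts and smaller with the miR-200 vectors.

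The interaction was negative for Adgrb2 (-2.58), Aqp5 (-1.93), Col16a1 (-2.55), Dll1 (-3.67), Gdf6 (-3.09), Pxdn (-2.53), Rgl3 (-3.98), Tap2 (-2.22), Insyn1 (-3.37) and Prkar2b (-2.74). Insyn1 and Prkar2b did not pass in 28-2-200f against ID8-200f.

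In 9 genes a group held 3 counts or fewer, so that the fitted size depends on the prior count and is no bound. These were Armcx3 (12.72), Nynrin (14.23), Peg3 (9.87), Slc25a48 (13.47) and Trps1 (11.67), all with 0 counts in 28-2EV, Gria3 (10.05), Crb3 (6.08) and Lad1 (8.39), with 1 to 3 counts in 28-2EV, and Ephb4 (-5.93), with 2 counts in 28-2-200f. Nynrin and Gria3 did not pass in 28-2-200f against ID8-200f. Nynrin had 10.7, 7.13 and 0.0608 CPM in 28-2-200f cells, against 0.629, 1.09 and 1.22 CPM in ID8-200f cells. It had no read in any of the 3 28-2EV libraries, against 18.1, 18.8 and 26 CPM in ID8EV cells. Peg3, an imprinted gene expressed from the paternal copy, had 3.02, 2.9 and 2.37 CPM in 28-2-200f cells, against 12.3, 10.3 and 10.8 CPM in ID8-200f cells. It had no read in any of the 3 28-2EV libraries, against 27.7, 21.9 and 25.7 CPM in ID8EV cells.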

How the results depend on the processing

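For 28-2-200f against ID8-200f, 302 genes passed (167 higher, 135 lower). The count was 800 (449 and 351) with no filter on low counts, 572 (304 and 268) by DESeq2, 1200 (614 and 586) at an FDR under 0.05 alone and 111 (62 and 49) in a test against a fold change of 2. With 1 library left out it ranged from 80 to 473 (45 to 241 higher, 35 to 232 lower). The share of passing genes that were higher was 55.3%, against 47.2% with all 12 libraries in one fit and 44.1% with limma on log2(TPM + 1), which moved the median of all genes to -0.08. Of the 99 named genes that passed, 98 did so by DESeq2, 80 with all 12 libraries in one fit, 79 with limma, and 39 to 96 with 1 library left out, and none changed sign.

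For 28-2EV against ID8EV, 128 genes passed (16 and 112). The count was 487 (130 and 357) with no filter, 489 (123 and 366) by DESeq2, 317 (61 and 256) with all 12 libraries in one fit, and 10 to 436 with 1 library left out (1 to 144 higher, 9 to 292 lower). For the interaction, 168 genes passed (136 and 32). The count was 570 (413 and 157) with no filter, 413 (311 and 102) by DESeq2, and 80 to 252 with 1 library left out (69 to 174 higher, 8 to 79 lower).

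Whether the shared replicate numbers pair the samples could not be settled from so few libraries. Deviations of same-numbered 28-2-200f and ID8-200f libraries correlated at 0.24, 0.16 and -0.07. Those of 28-2EV and ID8EV correlated at -0.12, 0.07 and 0.36. With a replicate block 319 genes passed (188 and 131), with 95 of the 99 named genes among them, 123 (21 and 102) in 28-2EV against ID8EV, and 51 (45 and 6) for the interaction with a block within each line. Not every sample correlated best with its own number.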

Other observations

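Runs of neighboring genes that passed in the same direction were looked for after the values were seen, as 3 or more passing genes with at most 3 tested genes between them. All 4 runs found were higher in 28-2-200f. On chromosome 15, Jrk, Psca, Them6 and Slurp1 were consecutive tested genes. On chromosome 1, Ikbke, Ctse, Slc26a9 and Slc45a3 passed within 10 tested genes (log2 fold changes 1.34, 4.9, 1.88 and 1.42). On chromosome 9, Gsta4, Gsta1, Cgas and Cd109 passed within 8 tested genes (1.12, 2.06, 1.34 and 1.63). On chromosome 18, Ecscr, Sting1 and Nrg2 passed within 5 tested genes (1.77, 1.34 and 1.6). How many runs would arise in genes of unrelated order was not tested.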
